A study of Mus musculus with 10 samples.

Results

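The genes described here are 9 genes of hepatic haem synthesis and of electron supply to cytochrome P450 enzymes, chosen by name from the count table of hepatic mRNA from mice fed chow with or without TM5614. They are *Alas1*, *Alad*, *Uros*, *Urod*, *Cpox*, *Ppox* and *Fech*, listed in pathway order, together with *Por* and *Cyb5a*. All 9 were among the 24421 genes of the table, and all 9 passed the filter on low counts that left 11092 genes for testing. The Chow group was 5 male C57BL/6 mice, 21 weeks old per the labels, fed ad libitum on chow without the compound. The TM5614 group was 5 male C57BL/6 mice of the same age, fed ad libitum for 10 days on chow that carried TM5614, dosed at 20 mg/kg/day. The compound is a small molecule, taken by mouth, that inhibits plasminogen activator inhibitor-1, the main inhibitor of the plasminogen activators. Each mouse gave 1 library of whole-liver poly(A) RNA, so fewer cells of a type and less RNA per cell cannot be told apart, and the labels give neither the hour at which livers were taken nor the food eaten.

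Haem is an iron-containing ring that P450 enzymes, catalase and the respiratory cytochromes hold at their active sites. Its synthesis starts in the mitochondrion with 5-aminolevulinate synthase (ALAS1, the housekeeping form), passes through cytosolic steps that build and trim the porphyrin ring, and returns to the mitochondrion, where ferrochelatase inserts iron. In liver ALAS1 is the rate-limiting step and haem represses it, and most of the haem made there goes into P450 enzymes. Microsomal P450 enzymes take electrons from NADPH through P450 oxidoreductase (POR), and for some reactions a second electron comes through cytochrome b5 (CYB5A), which also feeds fatty acid desaturases and sterol-modifying enzymes.

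The total count per library ranged from 6398335 (Chow replicate 4) to 10874955 (Chow replicate 2), and levels are given as CPM, counts scaled by library size with TMM factors. Chow replicate 2 stood apart from the other Chow libraries, with the highest level of its group for 4 of the 9 genes and the lowest for 2, so results that rest on it are given with and without it. Hepatocyte markers summed to 111807 to 124817 CPM in Chow libraries and 98033 to 113650 CPM in TM5614 libraries, most of it *Alb*. Of these 8 markers 0 were called by edgeR (1 with an unadjusted p under 0.05, 1 called by DESeq2 and 1 by limma-voom).

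The first question was which of the 9 genes differed between the groups. In the quasi-likelihood test of edgeR, adjusted by Benjamini-Hochberg over all genes tested, 1 of 9 genes passed an adjusted p of 0.05. This gene, *Por*, was lower with TM5614. Over all genes tested 4.50% were called in either direction and 2.77% were called lower, so the share of the 9 genes called rests on a single gene. The median log2 fold change of the 9 genes was -0.32, against 0.01 over all genes tested, and 6 of the 9 estimates lay below 0, against 48.5% of all genes. The median is the estimate of *Urod*, which was -0.10 without Chow replicate 2. Without that library the middle estimate of the 9 was that of *Alad*, at -0.22, and *Fech* turned below 0, to -0.06. Without adjustment 5 of the 9 genes had p under 0.05, as did 2263 of the 11092. CPM of the groups did not overlap for 2 of the 9 genes, *Por* and *Cyb5a*, against 8.93% of all genes. CPM of *Por* and *Cyb5a* thus separated the groups, although edgeR did not call *Cyb5a*. CPM of each of the 7 haem enzymes overlapped between the groups. Of these 7 enzymes 0 were called by edgeR, DESeq2 or limma-voom, and 3 had an unadjusted edgeR p under 0.05.

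**Figure D1:**
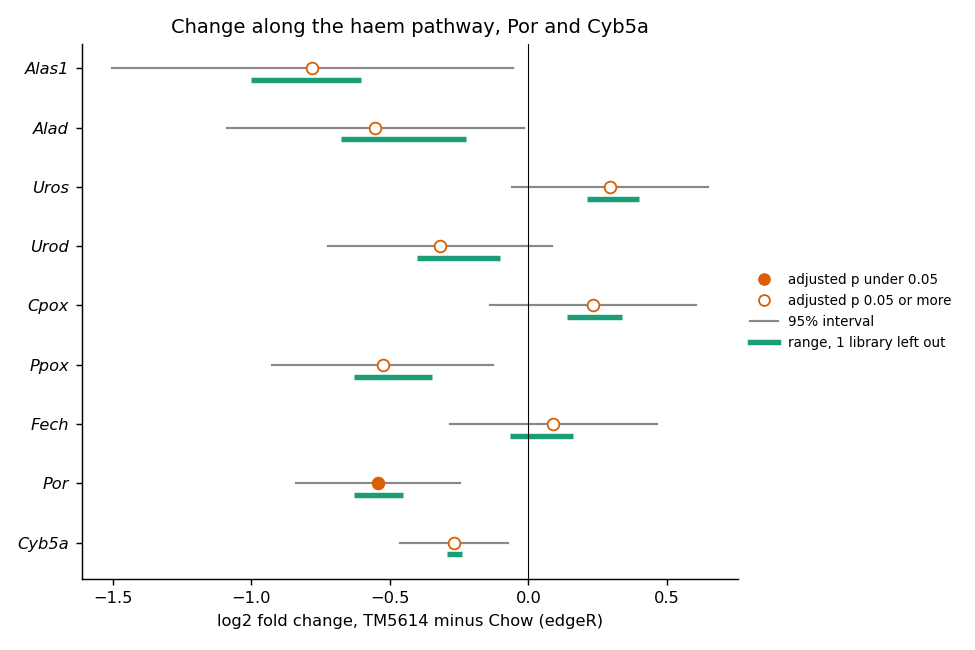
Change of each gene in pathway order. The horizontal axis is the edgeR log2 fold change (TM5614 minus Chow), the thin bars are 95% intervals, the thick bars are the range when 1 library was left out, and filled points have an adjusted p under 0.05. *Por* is the only filled point, and the thick bar of *Fech* crosses 0.

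*Por* encodes P450 oxidoreductase, the flavoprotein that hands electrons from NADPH to every microsomal P450. The gene lies on chromosome 5 at 135670033 to 135735326, plus strand (GRCm38). Its RefSeq promoter window (250 bases before to 50 after an annotated start, chr5:135688895-135689194, GRCm38.p6, plus strand, 67.3% GC) is shown because *Por* is the gene that was called, with each GC box (GGGCGG on either strand) in capitals.
Por promoter window: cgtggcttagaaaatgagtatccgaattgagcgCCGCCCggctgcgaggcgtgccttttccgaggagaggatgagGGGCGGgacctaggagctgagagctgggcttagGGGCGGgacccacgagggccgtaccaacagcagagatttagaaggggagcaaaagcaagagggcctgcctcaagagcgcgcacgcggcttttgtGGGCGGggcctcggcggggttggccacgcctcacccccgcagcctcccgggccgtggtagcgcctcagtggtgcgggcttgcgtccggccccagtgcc
The 4 GC boxes start at positions -217, -175, -142 and -48 relative to that start and overlap no other motif searched. A GC box stands in 35.7% of the 32851 mouse promoter windows of the same length. *Por* stood at 730, 756, 654, 846 and 764 CPM in Chow replicates 1 to 5. With TM5614 the levels were 515, 377, 557, 492 and 633 CPM in replicates 1 to 5. Every TM5614 library lay below every Chow library, and the highest TM5614 value (633) came close to the lowest Chow value (654). The mean fell by 31.4%, from 750 ± 69.0 to 515 ± 94.0 CPM (SD, n = 5 in each group), with a log2 fold change of -0.54 (SE 0.14, 95% interval -0.84 to -0.25, edgeR adjusted p = 0.0431).

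The call on *Por* lay near the threshold. Leaving out 1 library gave log2 fold changes from -0.63 to -0.45, and the adjusted p stayed under 0.05 in 2 of 10 such fits, those without Chow replicate 2 (0.0260) and without TM5614 replicate 5 (0.0329). Without any of Chow replicates 1, 3, 4 and 5 or TM5614 replicates 1, 2, 3 and 4 it lay between 0.0617 and 0.120. The longest *Por* transcript is 58.35% GC, and with GC content and length taken out of every library the log2 fold change was -0.36 (edgeR adjusted p = 0.242).

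*Cyb5a* encodes microsomal cytochrome b5, which passes electrons to P450 enzymes and to lipid desaturases, and lies on chromosome 18 at 84838704 to 84879871, plus strand. Chow replicates 1 to 5 gave 1277, 1350, 1175, 1197 and 1144 CPM. TM5614 replicates 1 to 5 gave 1047, 1041, 953, 1007 and 1052 CPM. The groups did not overlap, and the spread within them was among the smallest of all genes tested, at percentile 3.54 in Chow and 2.61 in TM5614 for the SD of log2 CPM. Means were 1229 ± 83.9 and 1020 ± 41.4 CPM, the log2 fold change was -0.27 (SE 0.09, 95% interval -0.46 to -0.07), and edgeR's adjusted p of 0.122 missed the threshold. On the same counts *Cyb5a* was called by DESeq2 (adjusted p = 0.00935) and by limma-voom with sample quality weights (adjusted p = 0.0405), and without Chow replicate 2 edgeR gave -0.24 (adjusted p = 0.0588). With GC content and length taken out the log2 fold change was -0.17 (edgeR adjusted p = 0.327).

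The other carriers and reductases of microsomal and mitochondrial P450 systems were described next. Of 8 tested genes on that list, *Por* and *Cyb5a* included, 4 were called lower and 0 higher, 4 were not called, and the list median was -0.51. *Cyb5r3*, the NADH-dependent reductase that reloads cytochrome b5, decreased by 50.6%. Its levels in Chow were 346, 620, 367, 337 and 319 CPM and in TM5614 were 233, 199, 171, 193 and 186 CPM, in replicate order, with no overlap of the groups. This is a log2 fold change of -1.02 (SE 0.18, adjusted p = 0.00776 by edgeR), or of -0.81 without Chow replicate 2, the highest library (adjusted p = 0.000275). *Cyb5b*, the cytochrome b5 of the outer mitochondrial membrane, fell by 32.0%, from 379 ± 58.5 to 258 ± 26.5 CPM (n = 5 in each group, adjusted p = 0.0295 by edgeR). *Fdx1*, the ferredoxin that serves mitochondrial P450s, fell by 27.7%, from 79.1 ± 10.8 to 57.2 ± 5.56 CPM (n = 5 in each group, adjusted p = 0.0466 by edgeR). *Cyb5r3* was called in 10 of the 10 fits that left out a library. Like *Por*, *Cyb5b* and *Fdx1* were close to the threshold, and each was called in 3 of these 10 fits. *Cyb5b* was called without Chow replicate 2, Chow replicate 4 or TM5614 replicate 1 and otherwise reached an adjusted p of up to 0.0867. *Fdx1* was called without Chow replicate 1, Chow replicate 2 or TM5614 replicate 2 and otherwise reached 0.141. *Fdxr*, the reductase of *Fdx1*, had a log2 fold change of -0.59 (SE 0.20) and was not called (edgeR adjusted p = 0.130), and *Cyb5r2* was at 0 counts in all 10 libraries.

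Because POR serves all microsomal P450s at once, its transcript was next set against theirs. For each library the FPKM of *Por* was divided by the summed FPKM of the 80 genes of families Cyp1 to Cyp4 in the table, of which 69 had a value above 0. FPKM values are scaled by gene length, so they can be summed across genes. *Por* made up 1.15%, 1.91%, 1.33%, 1.81% and 1.47% of the P450 sum in Chow replicates 1 to 5. In TM5614 replicates 1 to 5 it made up 0.892%, 0.788%, 1.03%, 0.827% and 1.16%. The TM5614 libraries lay lower, except that TM5614 replicate 5 (1.16%) and Chow replicate 1 (1.15%) overlapped. Group means were 1.53% ± 0.318 and 0.939% ± 0.154 (SD, n = 5), a difference of -0.70 in mean log2 ratio (exact two-sided permutation test, p = 0.0159). *Por* alone had a log2 fold change of -0.54, so this test is not separate from the call on that gene. The P450 sum itself was 19624 ± 3419 FPKM in Chow and 21363 ± 1904 FPKM in TM5614, with the lowest value, 15526 FPKM, in Chow replicate 2. Without that library the difference was -0.61 (exact permutation p = 0.0317), and over the other libraries left out in turn it ranged from -0.79 to -0.63. Over families Cyp1 to Cyp3 alone it was -0.49 (exact permutation p = 0.0317), the smallest difference of the alternatives run. That difference was no larger in size than the change of *Por* alone. *Cyp2e1* was the most abundant P450, at a mean of 6415 FPKM, and the difference without it was -0.75 (exact permutation p = 0.00794, the smallest that the design allows).

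The acceptors of these electrons were then taken by pathway. These lists, like that of the carriers, were chosen with earlier results of these data known. Their counts were not tested against the share of all genes called lower, 2.77%. Among 7 tested acceptors of POR outside drug metabolism, 3 were called lower and 0 higher, with a list median of -1.21. All 3 called genes act in cholesterol synthesis. The median is the estimate of *Cyp7a1*, which edgeR did not call, while *Cyp8b1*, *Cyp7b1* and *Cyp39a1* had estimates above 0. *Sqle*, squalene epoxidase, went from 71.1 ± 30.7 to 9.80 ± 5.90 CPM (log2 fold change -2.85, SE 0.41, edgeR adjusted p = 0.00223, n = 5 in each group). *Cyp51*, lanosterol demethylase, went from 158 ± 47.6 to 39.5 ± 10.8 CPM (-1.999, SE 0.24, adjusted p = 0.000740 by edgeR). *Dhcr7*, an enzyme of the final steps of cholesterol synthesis, went from 56.9 ± 10.9 to 23.6 ± 2.84 CPM (-1.27, SE 0.15, adjusted p = 0.000676 by edgeR). The groups did not overlap for any of the 3. The other 4 genes of the list are P450s of bile acid synthesis, and none was called by edgeR, while DESeq2 called *Cyp7a1* (adjusted p = 0.0309) and limma-voom called *Cyp8b1* (adjusted p = 0.0228). They ranged from *Cyp7a1*, the rate-limiting enzyme of bile acid synthesis (-1.21, SE 0.40, adjusted p = 0.119 by edgeR), to *Cyp8b1*, the sterol 12-alpha-hydroxylase (0.39, SE 0.17, adjusted p = 0.234 by edgeR).

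Among 6 tested acceptors of cytochrome b5, 3 were called lower and 0 higher by edgeR, with a list median of -0.49, and DESeq2 and limma-voom also called *Sc5d*, a sterol desaturase. *Msmo1*, which removes methyl groups from sterols, went from 277 ± 75.8 to 42.6 ± 20.6 CPM (-2.70, SE 0.31, adjusted p = 0.000602 by edgeR, n = 5 in each group). *Scd1*, the main hepatic stearoyl-CoA desaturase, went from 5075 ± 1582 to 2231 ± 625 CPM (-1.19, SE 0.24, adjusted p = 0.0162 by edgeR). *Fads1*, the delta-5 desaturase, went from 515 ± 31.2 to 367 ± 27.7 CPM (-0.49, SE 0.09, adjusted p = 0.0124 by edgeR). The last 2 lost their calls without TM5614 replicate 3, *Scd1* at an adjusted p of 0.0561 and *Fads1* at 0.0505. *Fads2*, the delta-6 desaturase, had the only estimate above 0 on this list (0.20, SE 0.15, adjusted p = 0.450 by edgeR).

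Drug-metabolising P450s that the nuclear receptors CAR and PXR are known to induce formed the last group of acceptors, and *Por* and *Alas1* are known targets of the same receptors. Of 9 tested, 3 were called lower by edgeR, 0 higher and 6 were not called, with a list median of -0.54. The median is the estimate of *Cyp2b9*, a rare transcript at 1.77 and 1.28 CPM that was not called (SE 0.55, adjusted p = 0.602 by edgeR). *Cyp2c37*, *Cyp3a11* and *Cyp3a25* had estimates above 0. *Cyp2a5* went from 1337 ± 338 to 441 ± 122 CPM (-1.60, SE 0.21, adjusted p = 0.00153 by edgeR, n = 5 in each group). *Cyp2c29* went from 1508 ± 452 to 868 ± 94.5 CPM (-0.80, SE 0.19, adjusted p = 0.0355 by edgeR), with overlapping groups. *Cyp2c55* was rare, at 3.54 ± 1.10 and 0.983 ± 0.482 CPM (-1.78, SE 0.35, adjusted p = 0.0132 by edgeR). *Cyp2c29* kept its call in 2 of 10 fits with a library left out, without Chow replicate 2 or without Chow replicate 4, and its adjusted p otherwise reached up to 0.102. *Cyp3a11*, a classical PXR target, stood at 8128 ± 2854 and 8970 ± 823 CPM (0.14, SE 0.23, adjusted p = 0.745 by edgeR), and *Cyp2b10*, a classical CAR target, at 14.7 ± 4.05 and 9.50 ± 2.65 CPM (-0.64, SE 0.24, adjusted p = 0.157 by edgeR, 0.0173 by limma-voom). P450 genes of a subfamily are close in sequence and may exchange reads in counting, so the counts of single Cyp2 and Cyp3 genes are uncertain to that degree.

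**Figure D2:**
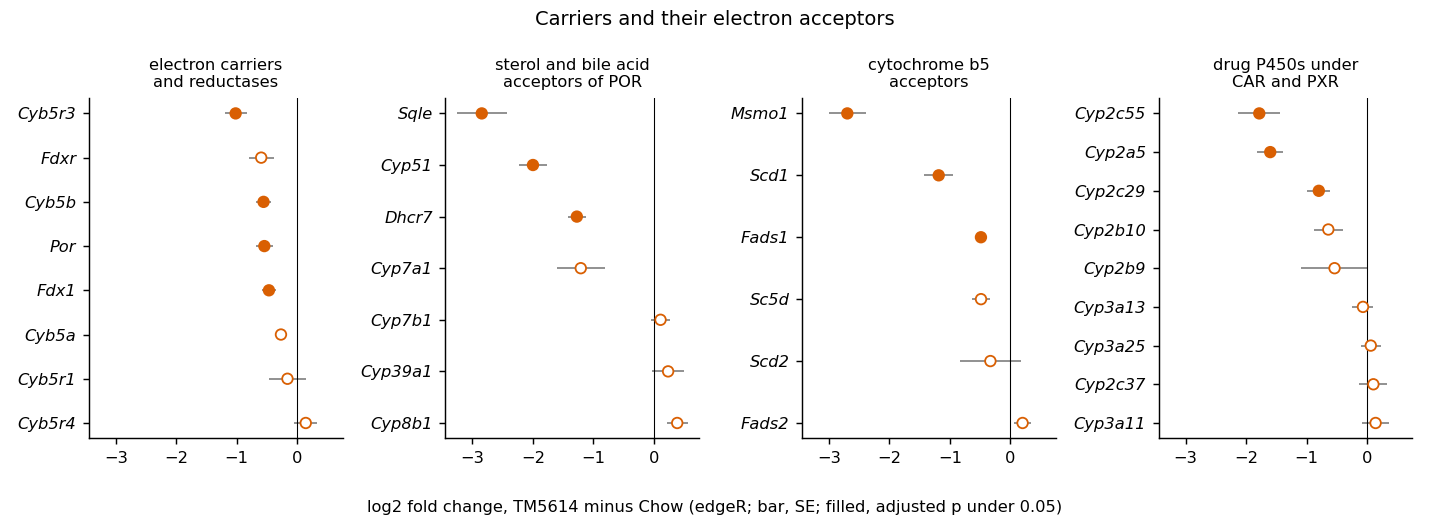
Electron carriers and 3 groups of acceptors, with the edgeR log2 fold change (TM5614 minus Chow) on the horizontal axis, bars of 1 SE, and filled points for an adjusted p under 0.05. Filled points lie left of 0 in all 4 panels, down to -2.85 for *Sqle*, while bile acid P450s and Cyp3a genes include open points at or right of 0.

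*Alas1*, the rate-limiting enzyme of haem synthesis, had the largest estimate of the 9 genes. Its spread was the widest of the 9 in TM5614 and, in Chow, second to that of *Alad*. The gene lies on chromosome 9 at 106233455 to 106248654, minus strand, and shares exonic bases with 4930500F10Rik on the opposite strand, which counts without strand cannot tell apart. RefSeq gives it more than 1 start. The window shown (chr9:106247681-106247980, GRCm38.p6, minus strand, 73.3% GC) has in capitals the matches to the NRF1 motif, 10 bases with any base at the fifth, since NRF1, a transcription factor for mitochondrial genes, is a described regulator of *Alas1*.
Alas1 promoter window: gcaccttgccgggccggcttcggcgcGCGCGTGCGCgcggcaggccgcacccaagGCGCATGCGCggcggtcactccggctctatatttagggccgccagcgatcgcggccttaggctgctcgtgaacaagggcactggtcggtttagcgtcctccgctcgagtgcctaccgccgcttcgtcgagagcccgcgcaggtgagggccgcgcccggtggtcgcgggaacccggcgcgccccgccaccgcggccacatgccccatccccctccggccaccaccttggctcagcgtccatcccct
The 2 matches start at positions -224 and -195 of this window and overlap no other motif searched, and the window of the other start holds them at positions 1 and 30. The motif stands in 4.60% of all mouse promoter windows. *Alas1* stood at 546, 410, 725, 890 and 1056 CPM in Chow replicates 1 to 5. In TM5614 replicates 1 to 5 it stood at 247, 205, 466, 663 and 532 CPM. The groups overlapped: TM5614 replicates 3, 4 and 5 lay inside the Chow range, and TM5614 replicates 1 and 2 lay below it. Within a group the highest library held 2.58 times (Chow) and 3.23 times (TM5614) the level of the lowest. The SD of log2 CPM was 0.546 in Chow and 0.731 in TM5614, the latter at the 97.5th percentile of all genes tested. Means were 726 ± 259 and 422 ± 193 CPM (SD, n = 5), the log2 fold change was -0.78 (SE 0.33, 95% interval -1.50 to -0.06), and edgeR's adjusted p of 0.214 missed the threshold. With at least 1581 counts in each library, counting error was 1.30% of the Chow mean and 1.84% of the TM5614 mean, far below the spread between mice. Without Chow replicate 2, the lowest Chow library, the log2 fold change was -0.94 (edgeR adjusted p = 0.0836).

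Among the transcription factors described as regulators of *Alas1*, 1 of 11 tested was called by edgeR, against 3 by DESeq2 (*Rxra*, *Nr1i2* and *Nr1i3*) and 3 by limma-voom (*Rxra*, *Nr1i2* and *Nr1d2*). *Rxra*, the shared partner of CAR, PXR and other nuclear receptors, fell by 23.1%, from 595 ± 29.2 to 457 ± 37.2 CPM (-0.38, SE 0.09, adjusted p = 0.0417 by edgeR, n = 5 in each group), and kept its call in 1 of 10 fits with a library left out, the fit without Chow replicate 2. In the other 9 fits its adjusted p lay between 0.0559 and 0.127. *Nr1i3*, which encodes CAR, had a log2 fold change of -0.67 (SE 0.22, adjusted p = 0.113 by edgeR) and *Nr1i2*, which encodes PXR, one of -0.31 (SE 0.10, adjusted p = 0.113 by edgeR). The coactivator *Ppargc1a* stood at 21.6 ± 8.41 and 23.6 ± 7.55 CPM and the clock repressor *Nr1d1* at 130 ± 40.2 and 109 ± 32.1 CPM, both with overlapping groups, and *Nrf1* was at 8.84 ± 2.21 and 8.10 ± 1.02 CPM.

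The cytosolic steps follow. *Alad* encodes porphobilinogen synthase (chromosome 4, 62509169 to 62519918, minus strand). Chow replicates 1 to 5 gave 88.2, 234, 123, 94.4 and 99.2 CPM. TM5614 replicates 1 to 5 gave 98.1, 83.1, 72.9, 99.5 and 82.7 CPM. Only Chow replicates 2 and 3 lay above the TM5614 range. The log2 fold change of -0.55 (SE 0.25, adjusted p = 0.234 by edgeR) became -0.22 (adjusted p = 0.268) without Chow replicate 2 and -0.28 (adjusted p = 0.281) with GC content and length taken out.

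*Uros* encodes uroporphyrinogen III synthase, which closes the ring (chromosome 7, 133686243 to 133710072, minus strand). One of its promoter windows holds a single NRF1 match, at position -47. Its levels were 12.1, 12.2, 13.5, 15.7 and 13.2 CPM in Chow replicates 1 to 5 and 11.3, 17.5, 20.0, 18.9 and 13.9 CPM in TM5614 replicates 1 to 5. TM5614 replicates 2, 3 and 4 lay above all Chow libraries and TM5614 replicate 1 below them. Means were 13.3 ± 1.45 and 16.3 ± 3.60 CPM, with a log2 fold change of 0.29 (SE 0.16, 95% interval -0.06 to 0.65, adjusted p = 0.332 by edgeR). The gene had 79 to 174 counts per library, so counting error alone was 9.22% of the mean in Chow, against a coefficient of variation of 10.9%, and 8.77% against 22.1% in TM5614.

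*Urod* encodes uroporphyrinogen decarboxylase (chromosome 4, 116989965 to 116994413, minus strand). In replicate order its Chow levels were 59.9, 118, 72.9, 60.4 and 62.1 CPM and its TM5614 levels 59.2, 66.2, 57.9, 64.8 and 51.2 CPM. The groups overlapped, with Chow replicates 2 and 3 above the TM5614 range and TM5614 replicates 1, 3 and 5 below the Chow range. Means were 74.6 ± 24.6 and 59.9 ± 5.98 CPM, with a log2 fold change of -0.32 (SE 0.19, adjusted p = 0.353 by edgeR) that became -0.10 (adjusted p = 0.560) without Chow replicate 2 and -0.11 (adjusted p = 0.560) with GC content and length taken out.

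The last steps return to the mitochondrion. *Cpox* encodes coproporphyrinogen oxidase (chromosome 16, 58670292 to 58717636, plus strand, with exonic overlap with *Gpr15* on the opposite strand). Chow levels were 229, 150, 256, 150 and 215 CPM and TM5614 levels 226, 180, 262, 260 and 247 CPM, in replicate order. The groups overlapped, with the lowest levels in Chow replicates 2 and 4. Means were 200 ± 47.8 and 235 ± 34.1 CPM (n = 5 in each group), with a log2 fold change of 0.23 (SE 0.17, adjusted p = 0.459 by edgeR) that was 0.14 without Chow replicate 2 (adjusted p = 0.641) and 0.14 without Chow replicate 4 (adjusted p = 0.663).

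*Ppox* encodes protoporphyrinogen oxidase (chromosome 1, 171275990 to 171281186, minus strand). Chow levels were 9.95, 20.0, 13.4, 13.2 and 11.5 CPM and TM5614 levels 10.5, 8.05, 9.86, 9.83 and 9.03 CPM, in replicate order. A single pair of libraries overlapped, Chow replicate 1 (9.95) and TM5614 replicate 1 (10.5). Means were 13.6 ± 3.83 and 9.45 ± 0.939 CPM (n = 5 in each group), with a log2 fold change of -0.53 (SE 0.18, 95% interval -0.92 to -0.13), an unadjusted p of 0.0138 and an adjusted p of 0.136 by edgeR. Without Chow replicate 2 the log2 fold change was -0.35 (adjusted p = 0.122). The gene had 62 to 207 counts per library, and its exons share bases with *B4galt3* on the opposite strand.

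*Fech* encodes ferrochelatase, which inserts the iron (chromosome 18, 64452914 to 64490251, minus strand). Its Chow levels were 192, 90.4, 167, 175 and 172 CPM and its TM5614 levels 155, 164, 179, 177 and 172 CPM, in replicate order. Chow replicate 2 lay far below the other 9 libraries, which ranged from 155 to 192 CPM. The log2 fold change was 0.09 (SE 0.17, 95% interval -0.28 to 0.46, adjusted p = 0.789 by edgeR) and turned to -0.06 without Chow replicate 2.

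**Figure D3:**
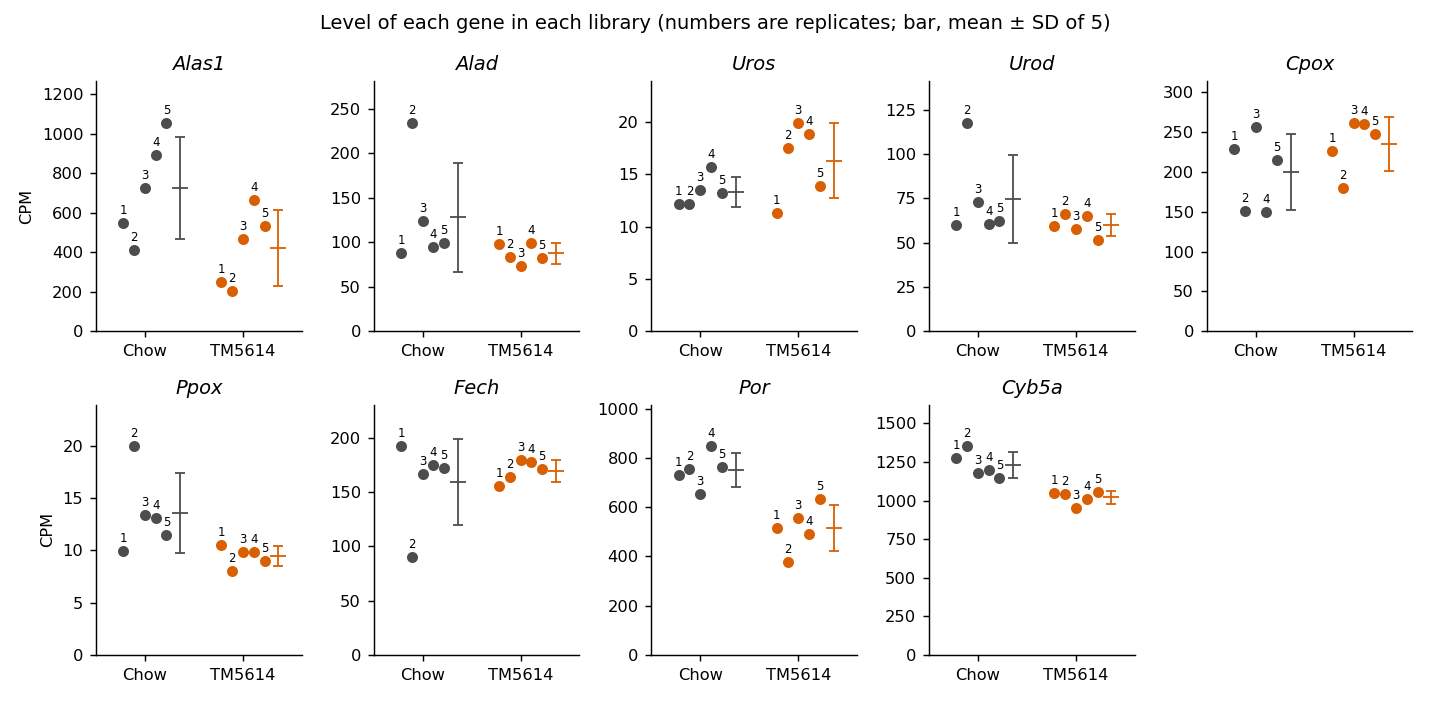
CPM of the 9 genes in each library, with replicate numbers above the points and bars for mean ± SD of 5 libraries, each panel on its own axis from 0. TM5614 points lie below all Chow points for *Por* and *Cyb5a*, and Chow replicate 2 lies apart for *Alad* (234 CPM), *Urod* (118 CPM) and *Fech* (90.4 CPM).

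Genes that supply, move and use haem were described by the same counts. Among 7 tested genes that make the substrate of ALAS1 or turn the protein over, 1 was called by edgeR, 2 by DESeq2 and 3 by limma-voom, and 5 had an unadjusted edgeR p under 0.05. Beside *Clpx*, *Sucla2* was called by DESeq2 and limma-voom and *Suclg1* by limma-voom, both subunits of succinyl-CoA synthetase. *Clpx*, the chaperone subunit of a mitochondrial protease that activates ALAS1 and takes part in its degradation, rose by 187%. It stood at 154, 75.2, 87.6, 105 and 79.2 CPM in Chow replicates 1 to 5 and at 281, 302, 352, 299 and 203 CPM in TM5614 replicates 1 to 5. Every TM5614 library lay above every Chow library, and the log2 fold change was 1.52 (SE 0.21, adjusted p = 0.00175 by edgeR), called in 10 of 10 fits with a library left out.

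Of 8 tested genes of mitochondrial iron and iron-sulphur supply, 1 was called lower. *Slc25a37*, mitoferrin-1, which carries iron into mitochondria, fell by 36.5%, from 38.8 ± 6.34 to 24.6 ± 2.78 CPM (-0.66, SE 0.13, adjusted p = 0.0161 by edgeR, n = 5 in each group), and without TM5614 replicate 3 its adjusted p was 0.0600. Its paralog *Slc25a28*, mitoferrin-2, had a log2 fold change of -0.58 (SE 0.22, adjusted p = 0.173 by edgeR). Of 11 tested genes of haem and porphyrin transport, median -0.05, 0 were called by edgeR, 3 had an unadjusted p under 0.05, and DESeq2 and limma-voom called 1 each. Of 8 genes of haem breakdown and scavenging, median -0.28, 0 were called by edgeR, DESeq2 or limma-voom and 2 had an unadjusted p under 0.05. They include haem oxygenase *Hmox1*, at 11.5 ± 3.37 and 9.42 ± 2.01 CPM. Of 3 genes of haem A synthesis and haem c attachment, median 0.22, 0 were called by any of these tools and 0 had an unadjusted p under 0.05. Of 8 haem proteins other than P450s, median 0.04, 0 were called by edgeR or DESeq2 and 1 by limma-voom, and 2 had an unadjusted p under 0.05. Catalase (*Cat*) stood among them at 3054 ± 829 and 3119 ± 292 CPM.

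Levels of different genes can be compared per length, on the FPKM scale. In Chow livers *Cyb5a* stood highest at a mean of 1621 FPKM, above *Por* (293 FPKM) in all 5 libraries, and *Por* lay above *Alas1* (220 FPKM) in 4 of 5. *Cpox* (62.1 FPKM), *Urod* (61.5 FPKM) and *Fech* (54.2 FPKM) formed a middle tier whose order varied between libraries, with *Cpox* above *Urod* in 3 of 5 and *Urod* above *Fech* in 2 of 5. *Alad* (27.5 FPKM) came next. *Ppox* (7.37 FPKM) and *Uros* (5.43 FPKM) were lowest, with *Ppox* above *Uros* in 5 of 5. With TM5614 the first 4 places were unchanged, *Cyb5a* 1343, *Por* 201, *Alas1* 128 and *Cpox* 72.8 FPKM. Further down the order differed: *Uros* (6.63 FPKM) stood above *Ppox* (5.12 FPKM) in 4 of 5 libraries, and *Fech* (57.6 FPKM) stood above *Urod* (49.2 FPKM) in 5 of 5. The Chow order of *Urod* and *Fech* leaned on Chow replicate 2, with *Urod* at 96.9 FPKM and *Fech* at 30.8 FPKM. In Chow replicates 1, 4 and 5 *Fech* stood above *Urod*, as with TM5614. These differences in order are a description and were not tested.

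**Figure D4:**
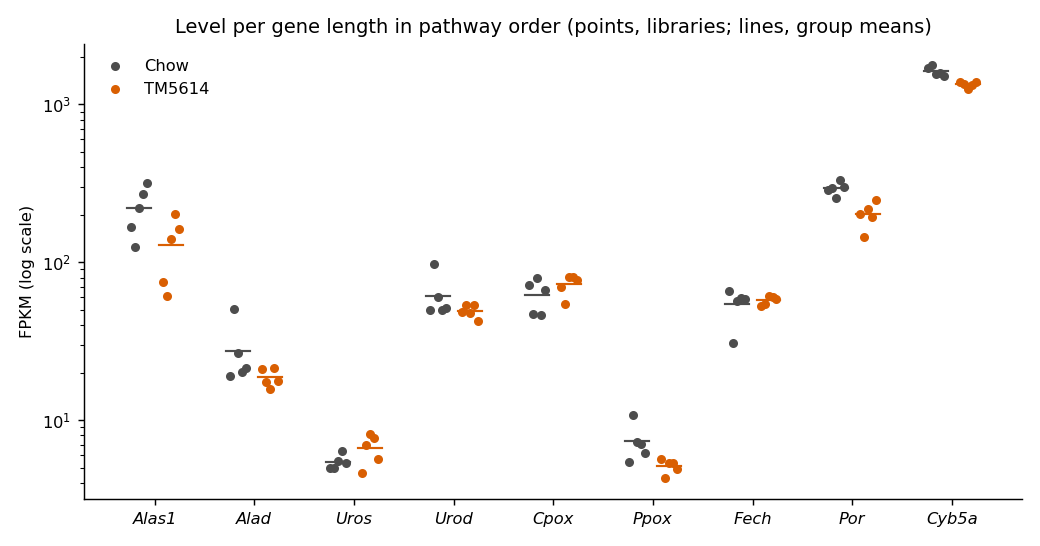
FPKM of each gene in each library on a log scale, in pathway order, with short lines for the group means. The carriers at the right and *Alas1* at the left stand above the enzymes between them, with *Cyb5a* at 1621 and 1343 FPKM in Chow and TM5614 and *Uros* at 5.43 and 6.63 FPKM.

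The genes most like *Alas1* and *Por* over the 10 libraries were ranked by the root mean square difference in log2 CPM after centring each gene. *Coq10b*, a coenzyme Q-binding protein of mitochondria, was closest to *Alas1* at 0.225, followed by *Lonrf1* (0.351), *Bhlhe40* (0.357) and *Gm14403* (0.364). *Coq10b* stood at a mean of 48.3 CPM in Chow and 25.9 CPM in TM5614, and like *Alas1* it was not called (edgeR adjusted p = 0.177). Closest to *Por* were *Mpv17l* (0.108), *Pitpnc1* (0.124), *Ttc39c* (0.137), *Wipf3* (0.146) and *Phka2* (0.150). *Mpv17l* (36.04 to 24.9 CPM) and *Pitpnc1* (45.5 to 30.5 CPM) were called lower, with edgeR adjusted p of 0.0433 and 0.0303. The ranking used the treatment difference as well as the spread within groups.

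Markers of other cells in the tissue were checked last, since blood precursors make haem too and P450 genes are zoned across the lobule. Of 12 erythroid markers 10 were in the table and 2 passed the filter, with 0 called by edgeR, 1 with an unadjusted p under 0.05, and 1 called by DESeq2 and by limma-voom. Their summed level was 44.6 to 98.2 CPM in Chow and 36.8 to 58.8 CPM in TM5614, most of it *Alas2*, the erythroid synthase (62.4 ± 20.6 and 48.7 ± 8.23 CPM). The 4 globin genes on the list and *Tspo2* were at 0 in all libraries, although globin genes are near-identical copies whose reads counting can drop. Of 10 Kupffer cell markers 0 were called by edgeR, DESeq2 or limma-voom and 0 had an unadjusted p under 0.05, at 83.4 to 264 CPM in Chow and 83.2 to 178 CPM in TM5614. Pericentral hepatocyte markers, from the zone where *Por* and many P450s are highest, summed to 12971 to 19097 CPM in Chow and 12316 to 17158 CPM in TM5614. Most of that sum was *Cyp2e1* (11204 ± 2165 and 11353 ± 1426 CPM), so it says little of the other markers. Of 10 tested pericentral markers 4 were called lower and 1 higher. Of 8 periportal markers 1 was called higher and 0 lower, at 4868 to 9675 CPM and 8071 to 8587 CPM. The part of these markers in the differences of *Por* and the other carriers was not tested.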

How the data were processed

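Hepatic poly(A) RNA of 10 mice was sequenced as single-end reads and aligned to mm10 with STAR in the RNA Express application, per the study's methods. The annotation, versions and use of strand are not given in the sources used here. Raw counts were deposited by the authors, 1 whole number per gene symbol and mouse. The authors also deposited FPKM values, scaled by gene length and library, used here for levels between genes and for the *Por* ratio. A table of the authors' own DESeq2 comparison (fold changes and p-values) and their regularised log2 values were not used. Columns were matched to samples by mouse number and groups taken from titles, and 0 columns belonged to no sample.

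Genes were kept with filterByExpr, libraries scaled with TMM, and groups compared with edgeR 4.0.16 (glmQLFit, glmQLFTest, two-sided) run in R 4.3.3. p-values were adjusted by Benjamini-Hochberg over the 11092 genes, with 0.05 as the threshold. The SE of a log2 fold change is its size divided by the square root of F, and a prior count of 2 was used for log2 CPM. The count tests were tested on simulated data. Replicates are separate mice. Permutation tests used scipy 1.17.1. The alternatives were DESeq2 1.42.0, limma-voom (limma 3.58.1), RLE factors, library totals, no filter, at least 10 counts, the replicate number as a block, a GC and length spline offset (5 degrees of freedom each, 96.7% of genes with both), other P450 sums, and each library left out. The study's own comparison used DESeq2.

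Coordinates came from GENCODE M21 (GRCm38, the assembly mm10 names) and promoters from RefSeq (GRCm38.p6). Of the 9 genes, 7 were searched, in 10 windows. Motifs were searched on both strands. The E-box CACGTG stands in 7.15% of all windows, the half-site AGGTCA in 16.3%, the box CCAAT in 37.4%, the GC box GGGCGG in 35.7%, and the NRF1 motif in 4.60%. A D-box, a sterol element and an antioxidant element stand in 2.32%, 1.24% and 12.4%. The genes and lists were chosen with earlier results of these data known. Named genes are the 9, the called genes of each pathway list (up to 6), and the 5 genes most like *Alas1* and *Por* in centred log2 CPM, except that some genes are not reported here. Other list genes named for contrast (such as *Fdxr*, *Cyp7a1*, *Sc5d*, *Sucla2* and *Cat*) were chosen after their values were seen.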

Additional observations from a re-analysis of the deposited data

Results flagged for a closer look

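In a Dixon comparison of the highest and lowest library with the rest of its group, 4 of 50 groups (25 genes or ratios in 2 groups) had a library apart, where chance gives about 1 in 20. Chow replicate 2 was that library in each case. It stood at 234.1 CPM for *Alad* (other Chow libraries 88.17 to 123.3), 117.6 CPM for *Urod* (59.92 to 72.87), 90.38 CPM for *Fech* (166.6 to 192) and 620.4 CPM for *Cyb5r3* (319.4 to 366.8). *Fech* was low there and the other genes were high. *Por*, at 756 CPM, was not apart in this library.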

How the results depend on the processing

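Of the 9 genes, 1 was called with edgeR. DESeq2 called 2 and limma-voom called 2, *Por* and *Cyb5a* in each case, beside 900 and 1386 of all genes against 499 with edgeR. With library totals alone, no filter, or the GC and length offset 0 of the 9 were called, and *Por* then had log2 fold changes of -0.50, -0.54 and -0.36 (edgeR adjusted p = 0.0559, 0.0672 and 0.242). With a library left out the count ranged from 0 to 1, and calls over all genes from 235 to 1031, the latter without Chow replicate 2. Over all 18 alternatives *Por* kept its direction and was called in 6. The log2 fold change of *Fech* reversed to -0.0298 with limma-voom, -0.0394 with the GC and length offset and -0.0649 without Chow replicate 2, with a range of -0.0649 to 0.160 over the libraries left out. The cause was not tested. The other genes of the 9 kept their direction under every alternative run. With the replicate block 1 of the 9 was called, *Alas1* (-0.84, adjusted p = 0.0104), *Por* was not (-0.56, adjusted p = 0.0543), and 555 of all genes were. A paired sign-flip test of the *Por* ratio gave -0.70 with an exact permutation p = 0.0625, the smallest it allows. Correlations of same-numbered libraries ranged from 0.03 to 0.32, all above 0, and 1 of 5 numbers matched best with itself. With 5 pairs these values cannot decide whether same-numbered libraries share more than a number. Depth limits *Ppox* and *Uros*, the genes with the fewest counts.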
